A study of Mus musculus with 2 samples.

Results

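The corticosteroid receptors and a set of their best known partners and target genes were followed across nuclei of the mouse thick ascending limb (TAL). The set held 8 of the 32227 genes counted: the receptor genes Nr3c1 and Nr3c2, the steroid-inactivating enzyme gene Hsd11b2, and the targets and effectors Sgk1, Nedd4l, Tsc22d3, Fkbp5 and Zbtb16. They were chosen by name and all were found. Kidneys came from male B6 mice of age 12 (unit not given), labelled wild type, of the NKCC2-INTACT line, in which a tamoxifen-inducible Cre driven by NKCC2 turns on the nuclear envelope protein Sun1-sfGFP in TAL cells. All mice had received tamoxifen at 1 mg per day for 5 days with 10 days of induction, and no other treatment is named. Nuclei sorted for GFP from dissected cortex, a superficial strip of 20% of the depth, and from the remaining tissue, called medulla, gave 1 library each by single-nucleus RNA-Seq. The number of animals behind each library is not stated. With 1 library per region no test across animals was possible, and a difference between regions cannot be told apart from a difference between libraries.

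The glucocorticoid receptor (GR, Nr3c1) and the mineralocorticoid receptor (MR, Nr3c2) are nuclear receptors that bind closely related DNA elements. MR binds glucocorticoids as well as aldosterone, and in aldosterone-sensitive cells the enzyme encoded by Hsd11b2 inactivates glucocorticoids and so leaves MR to aldosterone. SGK1 is a kinase induced by both hormones, and it phosphorylates NEDD4-2 (Nedd4l), a ubiquitin ligase that removes the epithelial sodium channel and other transporters from the membrane. Tsc22d3 encodes the glucocorticoid-induced leucine zipper GILZ, Fkbp5 an HSP90 cochaperone that lowers the affinity of GR for its ligand, and Zbtb16 the transcriptional repressor PLZF, and all of these are induced by glucocorticoids in many tissues.

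On GRCm39, Nr3c2 lies at chr8:77625576-77971863, Hsd11b2 at chr8:106245369-106250620, Sgk1 at chr10:21758083-21875802, Fkbp5 at chr17:28618058-28737521, Zbtb16 at chr9:48563141-48748664 and Tsc22d3 at chrX:139440091-139501408. The palindrome AGAACA, 3 bases of any kind, then TGTTCT, which is its own reverse complement and to which both receptors can bind, occurred 3 times in the bodies of the 8 genes, with 2 sites in Fkbp5 and 1 in Sgk1. These sites are shown because they are the only matches in the set, found in 2 of the 8 genes, with the receptor palindrome in capitals and flanks in lower case, on the plus strand of GRCm39. Each lies in an intron.
Fkbp5, chr17:28639295-28639309: agagcacAGAACAcccTGTTCTgaatgtg
Fkbp5, chr17:28661393-28661407: aaagcctAGAACAagcTGTTCTcaaacaa
Sgk1, chr10:21869600-21869614: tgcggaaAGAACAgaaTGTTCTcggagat
The variant that begins with GGAACA in place of AGAACA, searched on both strands, was in none of the 8 gene bodies. Of all 21770 protein-coding genes, 281 (1.29%) held the palindrome and 283 the variant. Genes of similar length were those where the longer gene exceeded the shorter by at most 25%. Among these, the share with the palindrome was 3.66% for Fkbp5 and 3.52% for Sgk1. The members had been chosen as known steroid targets, so no test was made of these shares, and a match describes letters and not binding.

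The Sgk1 palindrome, with the same flanks, also stood in the 250 bases before 1 of the 6 transcription starts that RefSeq lists for Sgk1. Its window, chr10:21993640-21993889 of GRCm38.p6 on the plus strand, is printed with every TGTTCT or AGAACA half-site in capitals.
Sgk1 promoter: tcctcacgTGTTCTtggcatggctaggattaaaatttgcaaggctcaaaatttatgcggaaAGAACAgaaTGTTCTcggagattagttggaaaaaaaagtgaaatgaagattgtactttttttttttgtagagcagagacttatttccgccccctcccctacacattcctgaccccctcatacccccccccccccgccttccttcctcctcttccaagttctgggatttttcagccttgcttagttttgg
Shares were counted over whole RefSeq windows, which run past the start (chr10:21993640-21993939 for the one printed in part). Of 32851 such windows, 11 (0.0335%) held the palindrome or its variant and 6233 (18.97%) held a half-site. RefSeq windows were matched for 4 of the 8 genes, 11 windows in all, of which 4 held a half-site.

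The barcodes were sorted into classes by their own counts. A barcode with at least 5 Slc12a3 counts was taken as distal convoluted tubule (DCT), and the others with at least 10 Slc12a1 counts as TAL. Among these, Nos1 and Pappa2 together at 3 or more gave macula densa (MD), then Tmem52b at 2 or more gave TAL-β, then Tmem207 and Gpc5 together at 2 or more gave TAL-γ, and the rest were TAL-α. In cortex there were 2813 TAL-α, 1461 TAL-β, 248 TAL-γ, 649 MD and 92 DCT barcodes. In medulla there were 3775, 566, 3542, 78 and 15. TAL-γ by this gate was 43.6% of the medulla and 4.56% of the cortex library, and TAL-α, the remainder, 46.5% of medulla. In the authors' clusters of filtered nuclei, TAL-γ was a smaller share of both regions and TAL-α a larger share of medulla. The libraries held 16457300 and 20947211 counts in 5442 and 8121 barcodes called as nuclei, with medians of 2427 and 2430 counts, and they shared 0 barcodes. Levels are CPM, the counts of a gene per 1000000 counts of its class and library, with 95% intervals that cover counting error only, since nuclei of 1 library are not replicates.

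The class names were checked with genes the gates did not use. Kcnj10, the basolateral potassium channel Kir4.1, was at 142 and 170.3 CPM in TAL-β of cortex and medulla and at 109 CPM in medullary TAL-γ, against 17.7 and 13.2 CPM in TAL-α. Cldn16 was highest in TAL-β and Cldn10 highest in TAL-α, in both libraries. In cortical TAL-γ barcodes, however, Cldn16 (153 CPM) was as high as Cldn10 (156 CPM), which goes against the label. This group is therefore given by its gate and enters no ratio between TAL classes. Its 248 barcodes do count among all cortical TAL barcodes, against which DCT is set below. Counts of proximal tubule genes were spread unevenly. At least 5 counts of 6 such markers were found in 12.6% of TAL-α, 17.1% of TAL-β and 6.47% of MD barcodes in cortex, but in 1.67%, 3.00% and 1.28% in medulla.

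Nr3c2, the MR gene, was higher in MD than in TAL-α in both libraries. In cortex it was at 727 CPM in TAL-α, 754 CPM in TAL-β, 653 CPM in TAL-γ, 939.6 CPM in MD and 967 CPM in DCT. In medulla it was at 622 CPM in TAL-α, 754 CPM in TAL-β, 573 CPM in TAL-γ and 843 CPM in MD. Intervals of MD overlapped those of TAL-β in medulla and not in cortex. Those of MD and TAL-α did not overlap in either library, and MD was 1.29 times TAL-α in cortex (1.22 to 1.37) and 1.36 times in medulla (1.14 to 1.60). After each barcode was thinned to 1000 counts, Nr3c2 was counted in 58.9% of MD and 49.6% of TAL-α barcodes in cortex, and in 56.4% and 40.6% in medulla. TAL-β exceeded TAL-α by a ratio of 1.21 in medulla (1.14 to 1.29), whereas in cortex the ratio of 1.04 had an interval that held 1 (0.994 to 1.08). Cortical TAL-α barcodes with proximal tubule counts had less Nr3c2 (448 CPM) than those without (818 CPM).

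Nr3c1, the GR gene, which lies on chromosome 18, was lower in TAL-β than in TAL-α. Its levels in cortex were 248 CPM in TAL-α, 203 CPM in TAL-β, 228 CPM in TAL-γ, 225 CPM in MD and 185 CPM in DCT. In medulla they were 261 CPM in TAL-α, 189 CPM in TAL-β, 247 CPM in TAL-γ and 271 CPM in MD. Barcodes not called as nuclei held 195 CPM in cortex and 212 CPM in medulla. TAL-β was below TAL-α in both libraries, at 0.820 times in cortex (0.759 to 0.885) and 0.727 times in medulla (0.645 to 0.816). TAL-β was also at 0.767 times medullary TAL-γ (0.681 to 0.862), whereas TAL-γ was at 0.947 times TAL-α with an interval that held 1 (0.894 to 1.00). The interval of MD over TAL-α also held 1 in both libraries, as did that of MD over TAL-β in cortex (ratio 1.11). Without barcodes that carried markers of other lineages, this ratio of MD over TAL-β was 1.20 (1.03 to 1.39). Neither receptor reached a 1.5-fold difference between TAL classes.

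Both receptors were set side by side by the number of Nr3c2 counts per Nr3c1 count, a quantity that compares classes and not the abundance of the receptors, since it depends on transcript length and capture. In cortex it was 2.93 in TAL-α (2.79 to 3.09), 3.71 in TAL-β (3.46 to 3.98), 4.18 in MD (3.73 to 4.70) and 5.24 in DCT (4.18 to 6.63). The cortical TAL-γ gate was at 2.87 (2.42 to 3.40). In medulla it was 2.39 in TAL-α (2.28 to 2.50), 3.98 in TAL-β (3.52 to 4.51), 2.32 in TAL-γ (2.21 to 2.44) and 3.11 in MD (2.21 to 4.46). TAL-β lay above TAL-α in both libraries without overlap, and medullary TAL-γ overlapped TAL-α. Without barcodes that carried markers of other lineages, the values of TAL-α and TAL-β were 3.42 and 4.71 in cortex and 2.44 and 4.05 in medulla.

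**Figure D1:**
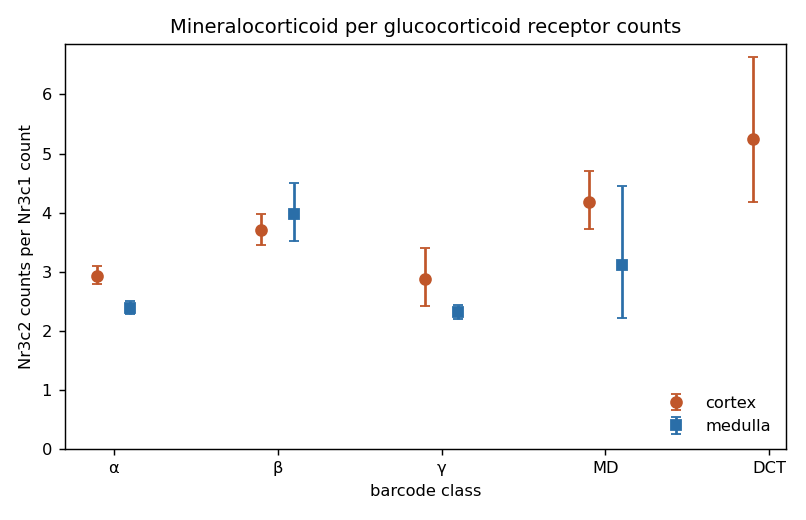
Counts of Nr3c2 per count of Nr3c1 in each barcode class (points, with 95% intervals for counting error) for the cortex and medulla libraries. TAL-β lies above TAL-α in both libraries (3.71 against 2.93, and 3.98 against 2.39), and DCT, shown for cortex only, is at 5.24.

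Hsd11b2, whose enzyme is the marker of aldosterone-selective cells, was rarely counted in TAL barcodes. It was counted in 0.924% of TAL-α, 2.40% of TAL-β and 1.08% of MD barcodes in cortex, where the median depths were 2423, 2648 and 1880 counts. In medulla the shares were 0.238%, 0.530% and 0 of 78 barcodes, at medians of 2404, 2780 and 1995.5 counts. The level in TAL-α was 3.54 CPM for the cortex and 1.39 CPM for the medulla library. Barcodes that were not called as nuclei, which hold free RNA, had 17.0 and 6.83 CPM, more than every TAL class of their library except medullary TAL-β (7.53 CPM). In medullary MD no count was found, which allows up to 18.1 CPM.

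The TAL-β barcodes of cortex had 3.18 times the Hsd11b2 level of TAL-α (11.2 against 3.54 CPM, 1.98 to 5.19), the only member past 1.5-fold there. These counts were concentrated in few barcodes. Of 56 counts, 41 were in the 45 TAL-β barcodes, of 1461, that also held at least 3 counts of connecting tubule and principal cell markers (Calb1, Slc8a1, Scnn1b, Scnn1g, Aqp2 and Fxyd4). The level was 145 CPM in these and 3.19 CPM in the other TAL-β barcodes, close to the 2.97 CPM of TAL-α barcodes without such markers. In medulla, 12 of 13 TAL-β counts were in 2 such barcodes, and in cortical MD 11 of 15 were in 13 barcodes. Without barcodes of any other lineage the cortical ratio was 1.04 (0.407 to 2.46), from 9 and 17 counts.

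Sgk1 was also sparse, and its counts followed proximal tubule markers. In cortex it was at 15.3 CPM in TAL-α, 20.3 CPM in TAL-β, 14.5 CPM in TAL-γ, 11.7 CPM in MD and 32.4 CPM in DCT. In medulla it was at 5.23 CPM in TAL-α, 8.69 CPM in TAL-β and 4.75 CPM in TAL-γ, with no count in MD. Barcodes not called as nuclei held 27.4 and 13.7 CPM, more than any TAL class of the same library. In cortical TAL-α, 71 of 121 counts were in the 355 barcodes with proximal tubule counts, at 36.5 CPM against 8.37 CPM in the other 2458. In cortical TAL-β, 46 of 101 counts were in 250 such barcodes, with a smaller gap in level (26.8 against 16.8 CPM). Of the same 101 counts, 22 were in the 45 barcodes with connecting tubule counts (77.8 against 16.8 CPM). In medullary TAL-γ, 24 of 43 counts were in 59 barcodes with proximal tubule counts (57.2 against 2.20 CPM).

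Sgk1 was higher in TAL-β than in TAL-α by a ratio of 1.33 in cortex (1.01 to 1.74) and 1.66 in medulla (0.866 to 3.02). Without other-lineage barcodes these were 1.67 (0.982 to 2.83) and 1.79 (0.744 to 3.91), from 29 and 34 counts in cortex and from 9 and 28 counts in medulla. All but the first of these intervals held 1. The order of the classes was thus not resolved by these counts.

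Nedd4l, also on chromosome 18, was lower in MD than in the other TAL classes of both libraries. It was at 1220.3 CPM in TAL-α, 1195 CPM in TAL-β, 1165 CPM in TAL-γ, 698 CPM in MD and 949 CPM in DCT of cortex. In medulla it was at 1159.7 CPM in TAL-α, 1128 CPM in TAL-β, 1092 CPM in TAL-γ and 717 CPM in MD. TAL-α, TAL-β and TAL-γ differed little, and MD stood below all of them in both libraries without overlap. MD was also under the level of barcodes not called as nuclei (943 CPM in cortex and 977 CPM in medulla). MD was at 0.572 times TAL-α in cortex (0.537 to 0.608) and at 0.618 times in medulla (0.512 to 0.740), and it was past 1.5-fold under each of 11 alternative settings in both. At 1000 counts per barcode, Nedd4l was counted in 43.0% of MD and 64.9% of TAL-α barcodes in cortex, and in 46.2% and 64.2% in medulla.

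**Figure D2:**
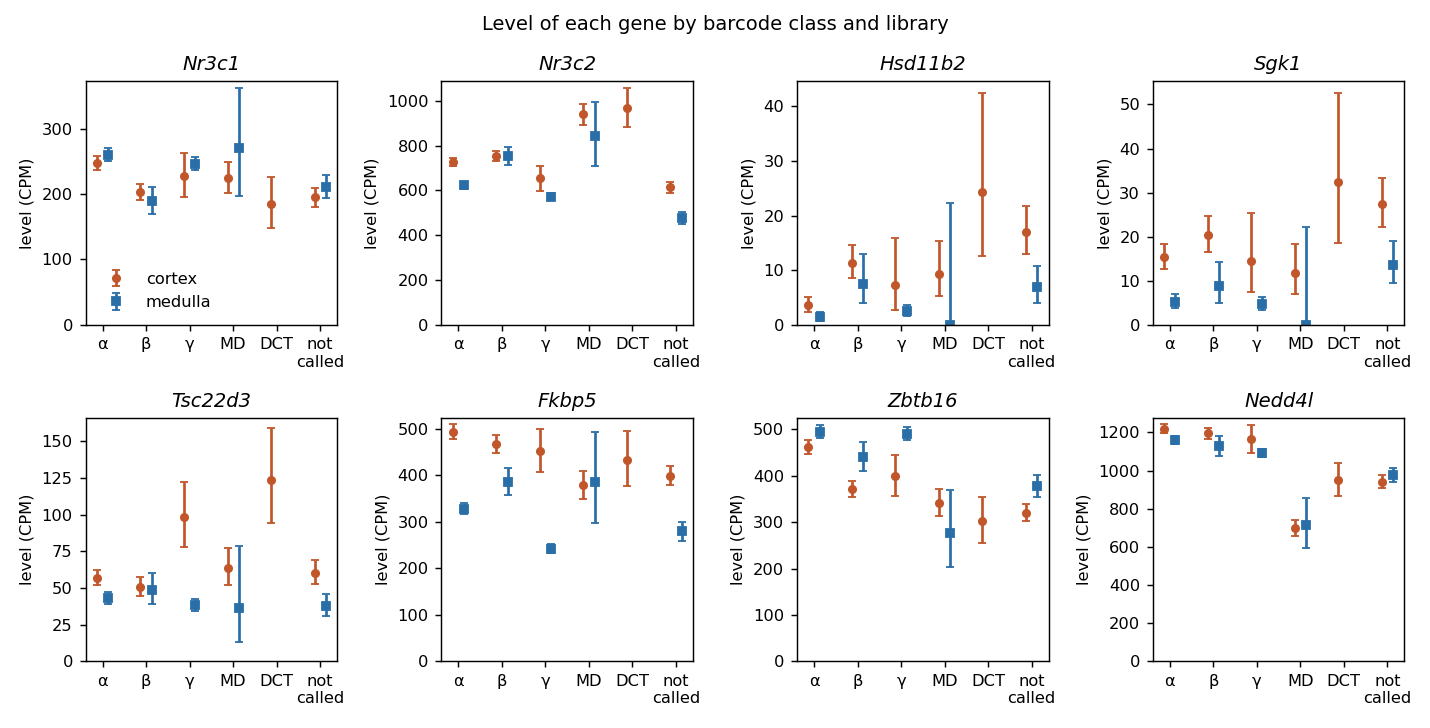
CPM of the 8 genes in TAL-α, TAL-β, TAL-γ, MD and DCT barcodes and in barcodes not called as nuclei, for the cortex (circles) and medulla (squares) libraries, with exact Poisson 95% intervals. The axes start at 0 and differ between genes, medullary DCT is left out at 15 barcodes, and MD is lowest for Nedd4l (698 and 717 CPM) in both libraries.

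The glucocorticoid-induced members had no common order. Zbtb16 was lower in MD than in TAL-α, at 341 and 277 CPM in cortex and medulla. TAL-α held 462 and 495 CPM, TAL-β 371 and 439.7 CPM, and medullary TAL-γ 490.4 CPM. Uncalled barcodes held 320 CPM in cortex and 378 CPM in medulla. The MD ratio to TAL-α was 0.738 in cortex (0.674 to 0.807) and 0.560 in medulla (0.409 to 0.748). In cortex MD was not separated from TAL-β (0.919, 0.834 to 1.01), but without other-lineage barcodes this ratio was 0.869 (0.776 to 0.971). TAL-β was at 0.803 times TAL-α in cortex (0.759 to 0.850), and at 0.889 times in medulla, where thinning to 1000 counts gave 1.01.

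Fkbp5 set medullary TAL-γ apart from the other TAL classes of that library. It was at 494 CPM in TAL-α, 467 CPM in TAL-β, 452 CPM in TAL-γ and 378 CPM in MD of cortex, and at 328 CPM in TAL-α, 386 CPM in TAL-β, 243 CPM in TAL-γ and 385 CPM in MD of medulla. TAL-γ was the lowest of these groups, at 0.740 times TAL-α (0.700 to 0.782) and 0.629 times TAL-β (0.576 to 0.687), the latter past 1.5-fold under all 11 alternative settings. TAL-β was above TAL-α in medulla (1.18, 1.08 to 1.28) and below it in cortex (0.945, 0.898 to 0.995). MD over TAL-α in medulla was 1.18 with an interval that held 1 (0.903 to 1.51). The medullary TAL-γ level was under that of uncalled barcodes (279 CPM).

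Among the TAL classes, Tsc22d3 was highest in the barcodes of the cortical TAL-γ gate, but not once barcodes of other lineages were left out. It was at 57.0 CPM in TAL-α, 50.7 CPM in TAL-β, 98.2 CPM in TAL-γ and 63.6 CPM in MD of cortex, and at 43.1, 48.7, 38.5 and 36.1 CPM in the same classes of medulla. The interval of the TAL-γ gate in cortex (78.0 to 122 CPM) did not overlap those of TAL-α and TAL-β, whereas every ratio computed between TAL-α, TAL-β, MD and medullary TAL-γ had an interval that held 1. In cortical TAL-α, 220 of 451 counts were in the 355 barcodes with proximal tubule counts (113 against 38.7 CPM). In the cortical TAL-γ gate 52 of 81 counts were in 46 such barcodes. With other-lineage barcodes left out, that gate was at 50.7 CPM (32.5 to 75.5), beside 53.5 CPM in cortical MD and 38.1 CPM in cortical TAL-α. Without other-lineage barcodes, MD was at 1.40 times TAL-α (1.05 to 1.85) and 1.77 times TAL-β (1.27 to 2.46) in cortex, the latter past 1.5-fold, and at 0.940 times TAL-α in medulla (0.343 to 2.07).

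**Figure D3:**
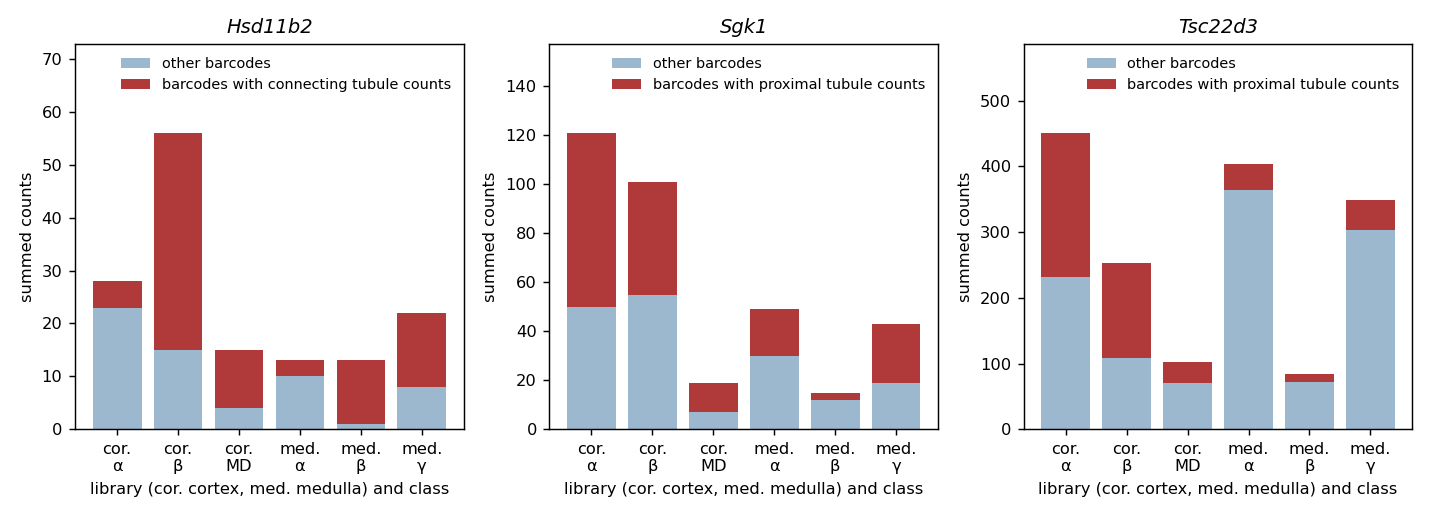
Summed counts of Hsd11b2, Sgk1 and Tsc22d3 in 6 class and library groups, split into barcodes with counts of another lineage (red, at least 3 connecting tubule and principal cell counts for Hsd11b2, at least 5 proximal tubule counts for the other genes) and all other barcodes (blue). In cortical TAL-β, 41 of 56 Hsd11b2 counts lie in the red part, and in cortical TAL-α 71 of 121 Sgk1 counts.

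The number of members past a 1.5-fold difference between TAL classes was set beside the share of all genes, among genes with at least 50 counts over both groups. For TAL-β over TAL-α it was 1 of 8 in cortex (Hsd11b2), where 9.43% of all genes tested passed in either direction, and 1 of 7 in medulla (Sgk1), against 14.9%. For medullary TAL-γ it was 0 of 7 over TAL-α, against 7.8% of all genes, and 2 of 7 over TAL-β (Fkbp5 at 0.629 and Sgk1 at 0.546), against 18.6%, and the Sgk1 interval held 1 (0.298 to 1.06). For MD over TAL-α it was 1 of 7 in cortex (Nedd4l), against 25.4%, and 2 of 6 in medulla (Zbtb16 and Nedd4l), against 52.3%, with 78 MD barcodes in that library. For MD over TAL-β in cortex it was 2 of 8 (Nedd4l and Sgk1), against 27.9%. With 6 to 8 members tested in a comparison, these numbers cannot set the members apart from all genes. More members passed for MD under some alternative settings, given below. The members' median ratio was 0.962 for TAL-β over TAL-α in cortex and 1.13 in medulla, beside 1.01 and 0.986 over all genes tested, and 0.768 and 0.939 for MD over TAL-α, beside 1.02 and 0.991.

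**Figure D4:**
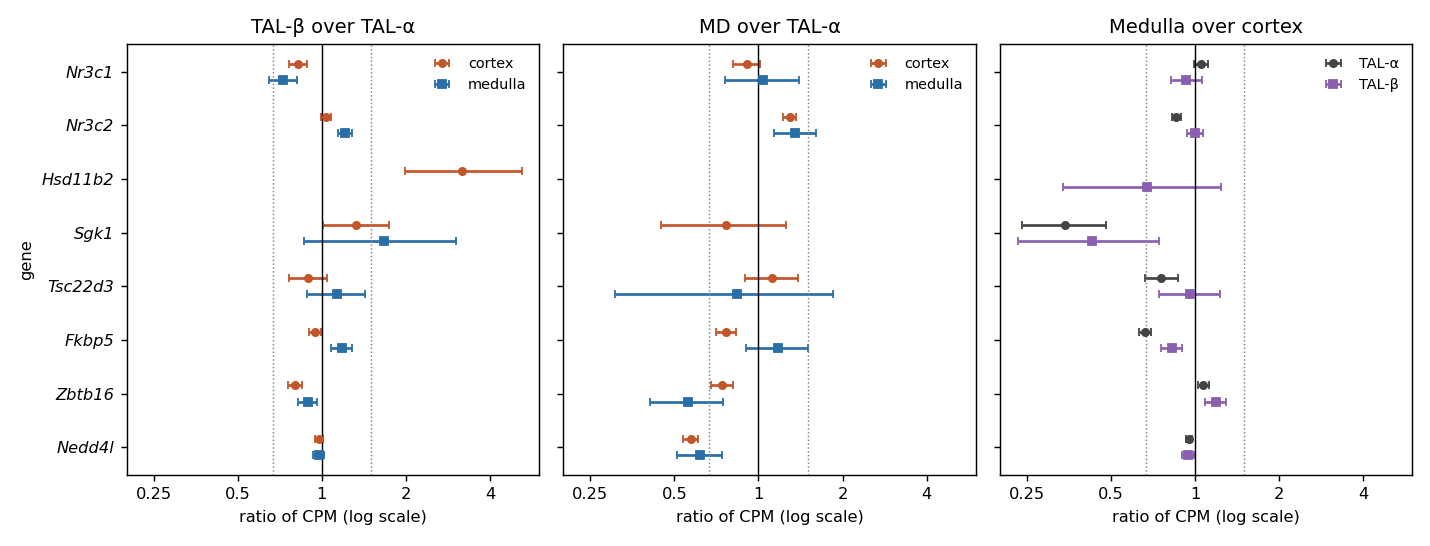
Ratios of CPM (log scale) of TAL-β over TAL-α and of MD over TAL-α in each library, and of medulla over cortex in TAL-α and TAL-β, with 95% intervals for counting error and dotted lines at 1.5-fold in either direction. Genes with fewer than 50 counts over both groups or no count in 1 of them are left out, and Nedd4l (0.572 and 0.618) is the only gene that lies left of both lines for MD over TAL-α in each library.

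The DCT lies downstream of the TAL, and the aldosterone-sensitive nephron starts in its late part. The 92 cortical DCT barcodes carried Trpm6 (1022 CPM), Calb1 (1089 CPM) and Scnn1b (107 CPM), and 47 of them also had at least 10 Slc12a1 counts. Against all TAL barcodes, 3 of 8 members were past 1.5-fold, all higher, where 34.3% of all genes tested passed: Hsd11b2 at 24.3 against 6.84 CPM (3.56, 1.78 to 6.48), Sgk1 at 32.4 against 16.5 CPM (1.97, 1.11 to 3.26) and Tsc22d3 at 124 against 57.8 CPM (2.14, 1.62 to 2.77). The DCT levels of Hsd11b2 (12.6 to 42.5 CPM) and Sgk1 (18.5 to 52.7 CPM) were not separated from those of uncalled cortical barcodes. These held 17.0 CPM (13.0 to 21.8) and 27.4 CPM (22.3 to 33.3). Tsc22d3 in DCT (94.6 to 159 CPM) lay above its uncalled level (52.8 to 69.0 CPM). The 12 Hsd11b2 counts came from 7 DCT barcodes. Of the receptors, Nr3c2 was 1.28 times higher (1.17 to 1.41) and Nr3c1 at 0.802 times (0.644 to 0.988). Barcodes with fewer than 10 Slc12a1 counts, the 45 with the least TAL RNA, had 1189 CPM of Nr3c2 and 109 CPM of Nr3c1, against 864 and 219.8 CPM in the other 47. Hsd11b2, in contrast, had 1 count in the former and 11 in the latter. All 12 Hsd11b2, 16 Sgk1 and 61 Tsc22d3 counts were in the 78 DCT barcodes with at least 2 counts of Calb1, Slc8a1, Scnn1b and Scnn1g, markers of late DCT and connecting tubule, and 0 in the 14 others, whose interval for 0 counts reaches 101 CPM. A single DCT barcode held 15 of the 61 Tsc22d3 counts, and thinned to 1000 counts per barcode the Tsc22d3 ratio was 1.12. The 15 medullary DCT barcodes, too few for a ratio, held 76 counts of Nr3c2, 10 of Nr3c1, 1 of Sgk1 and 0 of Hsd11b2.

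In TAL-α, 2 of 7 members were past 1.5-fold between medulla and cortex, both lower in medulla, against 21.4% of all genes. Sgk1 was at 0.342 times (5.23 against 15.3 CPM, 0.240 to 0.480) and Fkbp5 at 0.663 times (328 against 494 CPM, 0.632 to 0.696). Both genes were also lower in the uncalled barcodes of medulla. There Sgk1 was at 13.7 against 27.4 CPM and Fkbp5 at 279 against 399 CPM. In TAL-β only Sgk1 of 8 passed, at 0.429 times (0.232 to 0.742), against 19.3%, and Fkbp5 was at 0.826 times with an interval below 1. The Fkbp5 ratio in TAL-α lay at the edge of the fold and was past it under 6 of 11 alternative settings, at 0.658 to 0.698. Without other-lineage barcodes, Sgk1 in TAL-α was at 0.522 times (0.305 to 0.887) and Fkbp5 at 0.677 times (0.642 to 0.714), whereas Tsc22d3 moved from 0.756 to 1.06. In TAL-β, Sgk1 without these barcodes was at 0.560 times with an interval that held 1 (0.233 to 1.22, from 9 and 29 counts), too few counts for a call, and Tsc22d3 was at 1.49 times (1.08 to 2.06). Fkbp5 in TAL-β without these barcodes was at 0.921 times, and its interval then held 1 (0.834 to 1.02). Nr3c2 in TAL-α was at 0.856 times (0.825 to 0.887), and Nr3c1 at 1.05 times with an interval that held 1 (0.990 to 1.12). Without other-lineage barcodes they were at 0.773 times (0.743 to 0.803) and 1.08 times (1.01 to 1.16). Nr3c2 in TAL-β was at 1.00 times (0.938 to 1.07), and at 0.911 times without other-lineage barcodes (0.850 to 0.976). The part of the uneven proximal tubule RNA of the libraries in these ratios was not tested beyond this.

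A further 65 genes of the pathway, in 6 lists, were all in the files. The 9 receptor chaperones and 11 coregulators with enough counts held 0 genes past 1.5-fold between TAL-β and TAL-α in either library. Of all genes tested, 9.43% passed in cortex and 14.9% in medulla. The list medians were between 0.954 and 1.01, near those of all genes (1.01 in cortex and 0.986 in medulla). Among 15 genes of the SGK1 and Nedd4 family, 0 passed in cortex and 1 in medulla, beside the same shares of all genes. This was Mlst8 of the mTOR complexes, lower in TAL-β (0.372, 0.117 to 0.909), from 5 counts in TAL-β and 73 in TAL-α. Of the related receptors, the estrogen receptor gene Esr1 was at 0.407 times TAL-α in medullary TAL-β (0.290 to 0.557).

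Of 6 aldosterone-induced genes tested, 4 were lower in MD than in TAL-α in each library and none was higher. Over all genes, 1492 of 11441 were lower past the fold in cortex and 3098 of 10775 in medulla. These included the sodium pump subunit gene Atp1b1, at 0.572 times in cortex (0.545 to 0.600) and 0.533 times in medulla (0.464 to 0.610). Sgk2, a kinase related to SGK1, was at 0.489 times (0.411 to 0.579) in cortex and 0.291 times (0.133 to 0.554) in medulla. The coactivator Ppargc1a was at 0.426 times in cortex (330.3 against 775 CPM) and 0.199 times in medulla (325 against 1631 CPM). Of the glucocorticoid-induced genes, 5 of 12 were higher and 2 lower in cortical MD, where 1409 of all 11441 genes tested were higher and 1492 lower. The metallothionein genes had the most counts of the higher ones, with Mt1 at 2.50 times (2.23 to 2.81) and Mt2 at 2.81 times (2.43 to 3.23).

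Between medulla and cortex, glucocorticoid-induced genes went both ways in TAL-α, with 3 of 13 higher and 4 lower, beside 605 higher and 2083 lower of all 12576 genes tested. Errfi1, an inhibitor of EGF receptor signalling, was at 0.213 times (59.4 against 279 CPM, 0.193 to 0.233), and the phosphatase gene Dusp1 at 2.31 times (1.89 to 2.84). Ppargc1a was at 2.10 times (2.04 to 2.17). In DCT barcodes, the sodium channel subunit genes Scnn1b (8.46 times TAL, 6.12 to 11.5) and Scnn1g (6.99, 4.08 to 11.5) were the 2 higher of 9 aldosterone-induced genes, of which 1 was lower, beside 2111 higher and 2285 lower of all 12814 genes tested. The lower gene, Edn1, had 0 counts in DCT and 50 in TAL, and the interval of its ratio held 1 (0 to 2.38). Scnn1b and Scnn1g were 8.05 and 7.03 times higher in cortical TAL-β than TAL-α, and both are among the markers used above to find connecting tubule RNA.

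Within a class, members other than Hsd11b2 and Sgk1 were counted together about as often as their separate shares predict. Pairs were kept by class and library where the product of the shares predicts at least 50 barcodes with both genes. No pair with Hsd11b2 or Sgk1 reached that number. In the 61 pairs kept, the share with both genes over the product ranged from 0.885 to 1.08, after thinning to 1000 counts. The median was 0.996. None of the 61 intervals lay away from the product. Across the 9 class and library groups of at least 50 barcodes, levels of Nr3c1 and Hsd11b2 ran opposite (Pearson r = -0.89), as did Nr3c2 and Zbtb16 (-0.83), while Hsd11b2 and Sgk1 ran together (0.92). These are descriptions, because the 9 groups come from 2 libraries and differ in proximal and connecting tubule RNA. Medullary MD, with 78 barcodes, had no count of Hsd11b2 or Sgk1 and entered as 0, where the interval reaches 22.2 CPM. The cortical TAL-γ gate, which goes against its label, is also among the 9.

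By the same measure, over 11008 genes of at least 200 counts, each member was set beside genes from the 3 most similar in level. The groups were the same 9, so the 0 counts of Hsd11b2 and Sgk1 in medullary MD enter here too. Nr3c1 was closest to Ift43 (0.946), Sema6d and Mapk1ip1, and Nr3c2 to Cwh43 (0.975), Uroc1 and Gm6277. Hsd11b2 was closest to Rhcg (0.954), an ammonia transporter of the distal nephron, Whrn and Klhl42, and Sgk1 to Ctnna2 (0.998), BC035947 and Iqgap2. Tsc22d3 stood beside Fibp (0.978) and Cacna1c, and Fkbp5 beside Tnfrsf21 (0.978), Bcar1 and F11r. Zbtb16 was closest to Mfsd4a (0.974), St14 and Mturn, and Nedd4l to Atp5j2 (0.980), Slc25a39 and App.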

How the data were processed

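Nuclei were isolated from snap-frozen kidney, sorted for GFP and captured with PIPseq 5.0 chemistry. Alignment to GRCm39 and counting per gene and barcode were done by the authors in PIPseeker 3.3.0. The annotation release is not given in the sources used here. The submitters' processing notes also name bcl2fastq and Seurat 4.4.0. The deposited values are raw whole-number counts per gene and barcode, before the authors' doublet removal, ambient RNA correction and normalization, and were used without a filter on barcodes. Introns and strand settings of the counting are not given in the sources used here. The deposited cluster numbers and UMAP coordinates were not used here.

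The members and all lists were chosen with earlier results of these data known. Counts were summed over class and library in Python 3.11.15 (numpy 2.4.6, scipy 1.17.1, pandas 2.3.3) and divided by all counts of that group. CPM carry exact Poisson, ratios conditional binomial and shares Clopper-Pearson 95% intervals. A gene passed where its ratio was at least 1.5 or at most the inverse, with at least 50 counts over both groups of at least 50 barcodes each. A count of 0 was read as at most 3 counts. The script was tested on simulated counts. Barcodes of other lineages were those with at least 5 counts of proximal tubule markers or at least 3 of another marker list that is neither TAL nor DCT. They numbered 1114 in cortex and 342 in medulla. Doublets were kept, and leaving out the 5% with the highest Scrublet scores (scanpy 1.11.5) was an alternative, because the automatic threshold marked 359 barcodes in cortex (6.60%) and 3 in medulla (0.0369%).

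Genes named were the 8 members, at most 2 genes per list, direction and comparison (those past 1.5-fold with the most counts), and 3 genes most like each member by Pearson r of log2(CPM + 1). The text prints a part of these, and some are not reported here. Coordinates and motif sites came from GENCODE M39 on GRCm39, matched by Ensembl identifier, and promoters from RefSeq on GRCm38.p6.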

Additional observations from a re-analysis of the deposited data

Results flagged for a closer look

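Fkbp5 went opposite ways in the 2 libraries. TAL-β over TAL-α was 1.18 in medulla (1.08 to 1.28) and 0.945 in cortex (0.898 to 0.995). The difference between the libraries was not tested, since each region is 1 library. Without barcodes of other lineages the ratios were 1.19 and 0.872, with intervals that did not hold 1. In cortical TAL-β, barcodes with proximal tubule counts held 561 CPM of Fkbp5 and the others 418 CPM.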

How the results depend on the processing

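No paired analysis was possible because each region is 1 library and no replicate exists, so no result has a test. Of 795 ratios of members under 11 alternative settings, 0 reversed a difference past 1.5-fold, 734 stayed within the counting interval of the reported value and 61 moved out of it, 19 of them with other-lineage barcodes left out and 19 with thinning to 1000 counts. The number of members past the fold, or the genes behind it, changed as follows. For TAL-β over TAL-α in cortex it was 1, and 2 with stricter class gates and 0 with a minimum of 200 counts. It stayed at 1 without other-lineage barcodes and thinned, but the gene was Sgk1 in place of Hsd11b2. In medulla it was 1, and 0 without other-lineage barcodes, with stricter gates, thinned, at 2-fold and with 200 counts. For TAL-γ over TAL-β it was 2, and 1 without other-lineage barcodes, with stricter gates, thinned and with 200 counts, and 0 at 2-fold. For MD over TAL-α in cortex it was 1, and 2 without the highest Scrublet scores, 3 with the mean of counts per 10000 over barcodes and 0 at 2-fold. In medulla, a comparison added after seeing the data, it was 2, and 3 with stricter gates and thinned (Tsc22d3 added) and 0 at 2-fold. For MD over TAL-β it was 2 (Sgk1 and Nedd4l), 2 without other-lineage barcodes with Tsc22d3 in place of Sgk1, 3 with stricter gates and with the mean over barcodes (Hsd11b2 added), and 1 with Slc12a3 barcodes kept in the TAL classes, thinned and with 200 counts, and 0 at 2-fold. For DCT over TAL in cortex it was 3, and 5 with the mean over barcodes, where both receptors and Zbtb16 also passed and Tsc22d3 did not, 4 thinned (both receptors, Sgk1 and Zbtb16), and 2 at 2-fold (without Sgk1) and with 200 counts (without Hsd11b2). For medulla over cortex in TAL-α it was 2. It was 1 (Sgk1) without other-lineage barcodes, without the highest Scrublet scores, with stricter gates and after division by the median ratio. Sgk1 alone also passed with totals without the top 50 genes and at 2-fold. Thinned and with 200 counts it was 1 as well, but the gene was Fkbp5. In TAL-β it was 1, and 2 with Slc12a3 barcodes kept, without the highest Scrublet scores and with the mean over barcodes, and 0 without other-lineage barcodes, thinned and with 200 counts. Fewer counts enter with 200 as the minimum or after thinning, and otherwise the cause was not tested. DCT over TAL was not run in medulla (15 DCT barcodes), nor in cortex without other-lineage barcodes (18 left). Depth limits Hsd11b2 and Sgk1 most: a class of 78 barcodes with no count allows up to 18.1 CPM at 3 counts, or 22.2 CPM by the interval.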
